A study of Mus musculus with 2 samples.

Results

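Axon guidance cues are ligands that steer cells and growing processes by attraction or repulsion, and outside the nervous system they act on vessels, mesenchyme and epithelium. Semaphorins signal through plexins, with neuropilins as co-receptors for the secreted class 3 members. Ephrins are held at the cell surface and signal through Eph receptor tyrosine kinases on the neighboring cell, a system known for positioning epithelial cells along the intestinal crypt. Slits bind Robo receptors, and netrins bind Unc5 receptors, Dcc and neogenin.

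The genes described here are the protein-coding entries for semaphorins of classes 3 to 7, plexins, ephrins, Eph receptors, Slits, Robos, netrins and Unc5 receptors. Members were matched by gene symbol, and no measured value enters that rule, although the families were chosen with earlier results of these data known. This gave 67 of 37309 listed genes, with 66 distinct symbols because Efna5 is listed under 2 gene identifiers. Of the 67 genes, 36 encode ligands and 31 encode receptors.

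Intestinal subepithelial myofibroblasts (ISEMFs), mesenchymal cells that lie beneath the crypts, were cultured from the small intestine of C57BL/6 mice and profiled by mRNA sequencing. The supportive ISEMFs came from neonatal mice, 5 days old according to the methods, and the non-supportive ISEMFs from adult mice, 2 months old according to the methods. Both were wild type, were isolated in the same way and were grown with serum, insulin, transferrin and EGF, and their names refer to how well they sustain crypt epithelium in co-culture. Each population was sequenced as 1 library, so no difference below has a replicate check, and the age of the mice, the isolation and any difference in passage cannot be told apart from the population.

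Reads assigned to genes numbered 50674472 for supportive and 49615497 for non-supportive ISEMFs. Levels are given as deposited RPKM, the read count scaled to exon length and to the size of the library. Ratios are of supportive over non-supportive ISEMFs, each with a 95% exact Clopper-Pearson interval from the reads, which covers counting error only. A gene was taken as expressed when its RPKM reached 1 in either library, and a difference was called at 2-fold on log2(RPKM + 0.1), a scale that understates the difference of low genes. In RNA from a whole culture, fewer cells of a type and less RNA per cell cannot be told apart.

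The myofibroblast markers were present in both libraries, with Acta2, the gene of α-smooth muscle actin, at an RPKM of 908 in supportive and 1410 in non-supportive ISEMFs. All 7 myofibroblast markers examined were expressed, with a summed RPKM of 2294 and 3094, but Pdgfra was called lower in supportive ISEMFs (3.37 against 12.1) and Pdgfrb higher (28.1 against 7.67). Of 4 smooth muscle markers, Des, Myh11 and Cnn1 were called lower in supportive ISEMFs and Actg2 was not, and their summed RPKM was 352 and 590. Of 6 epithelial markers only Krt20 was expressed, with 11 reads in supportive and 419 in non-supportive ISEMFs, and it was called lower. Cdh1, under the level taken as expressed, went the opposite way, at 159 against 18 reads (ratio 8.58, interval 5.26 to 14.9). Krt18 was at 0 against 19 reads, and the epithelial markers summed to an RPKM of 0.530 and 3.47. None of the 7 endothelial markers was expressed, and their RPKM summed to 0.281 and 0.321. Kdr had 2 reads in supportive and 88 in non-supportive ISEMFs, while Tek went the other way, with 65 and 2. Cdh5 was at 0 and 7 reads and Tie1 at 0 reads in both. The 8 neuronal and glial markers summed to 14.5 and 10.3, and 3 were expressed. Of these, S100b was called higher, with 709 reads in supportive and 12 in non-supportive ISEMFs, while Uchl1 (481 and 525 reads) and Tubb3 (256 and 457 reads) were not called. Sox10 and Snap25 had 0 reads in both libraries. The 8 macrophage markers summed to an RPKM of 6.86 in supportive and 123 in non-supportive ISEMFs. Tyrobp, Ptprc, Emr1 and Itgam were at 0 reads in the supportive library. Of the 8 markers 7 were expressed, all of them in the non-supportive library and only Lyz2 in the supportive library as well. All 7 were called lower in supportive ISEMFs, against 8.98% of all expressed protein-coding genes. Passing the minimum only in the non-supportive library favors such a call, so this count rests largely on the filter. The part of these marker differences in the results on guidance genes was not tested.

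A read was found for 63 of the 67 guidance genes, and 30 of them (44.8%) were expressed, against 40.7% of all 22379 protein-coding genes. Of these 30 genes, 16 (53.3%) differed at least 2-fold, while 18.2% of the 9110 expressed protein-coding genes did. An RPKM of 1 was reached by 24 of the 30 in the supportive library and by 23 in the non-supportive library. Those counts were 8501 and 8464 for the 9110 protein-coding genes. Among the called genes only Epha4, Robo1, Efnb2, Sema3a and Sema5a reached it in both libraries. A gene that passes in only 1 library is called more readily, so the contrast of shares rests in part on the filter. The higher of the 2 RPKM values lay between 1.03 and 49.6 for the 30 genes, and among the 8548 protein-coding genes in that range 17.9% differed 2-fold. Of the 30 expressed guidance genes, 7 were higher and 9 lower in supportive ISEMFs. Of the 9110 expressed protein-coding genes, 843 (9.25%) were higher and 818 (8.98%) lower. The differences went both ways, so that the median log2 ratio was 0.21, while the median absolute log2 ratio was 1.11 against 0.41 over all expressed protein-coding genes. The whole interval lay past 2-fold for 15 of the 16 called genes, the exception being Efnb1. When RPKM was scaled to the reads on genes that are not mitochondrially encoded, 11 of 20 calls were higher (55.0%) in place of 7 of 16 (43.8%). That scaling also raised every RPKM, so that 36 guidance genes passed the minimum in place of 30, and the median over all expressed protein-coding genes shifted by 0.14 on the log2 scale. With the same balance between the libraries but the mean level of RPKM kept, 29 genes passed and 8 of 16 calls were higher.

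**Figure D1:**
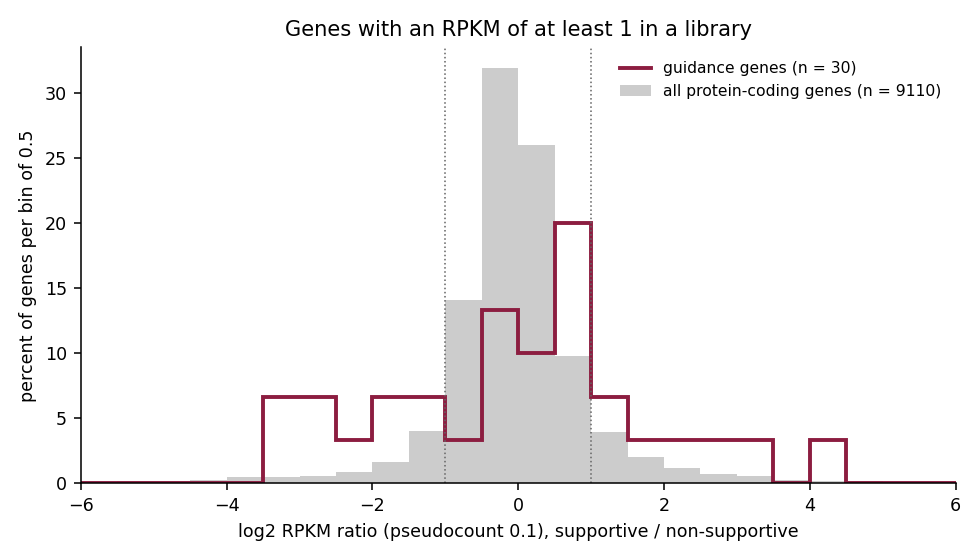
Distribution of the log2 RPKM ratio (supportive over non-supportive, pseudocount 0.1) in bins of 0.5, as percent of genes, for the 9110 expressed protein-coding genes (grey bars) and the 30 expressed guidance genes (line), with dotted lines at 2-fold. The guidance genes spread from -3.45 to 4.07, and 20 protein-coding genes lie outside the plotted range.

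The summed RPKM of the ligands was 55.1 in supportive and 117 in non-supportive ISEMFs, and that of the receptors was 132 and 96.0. Of 16 expressed ligands 3 were called higher and 7 lower in supportive ISEMFs (62.5% called). Among 14 expressed receptors 4 were higher and 2 lower (42.9% called). Over all expressed protein-coding genes 18.2% were called, 9.25% higher and 8.98% lower. An RPKM of 1 was reached by 11 ligands and 13 receptors in supportive and by 14 and 9 in non-supportive ISEMFs. The limit of the filter given above therefore applies to these shares too. A single ligand, Sema3a, made 42.4% of the ligand sum in the non-supportive library. The median log2 ratio was -0.57 over the expressed ligands and 0.76 over the expressed receptors, and no test of their difference was made.

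**Figure D2:**
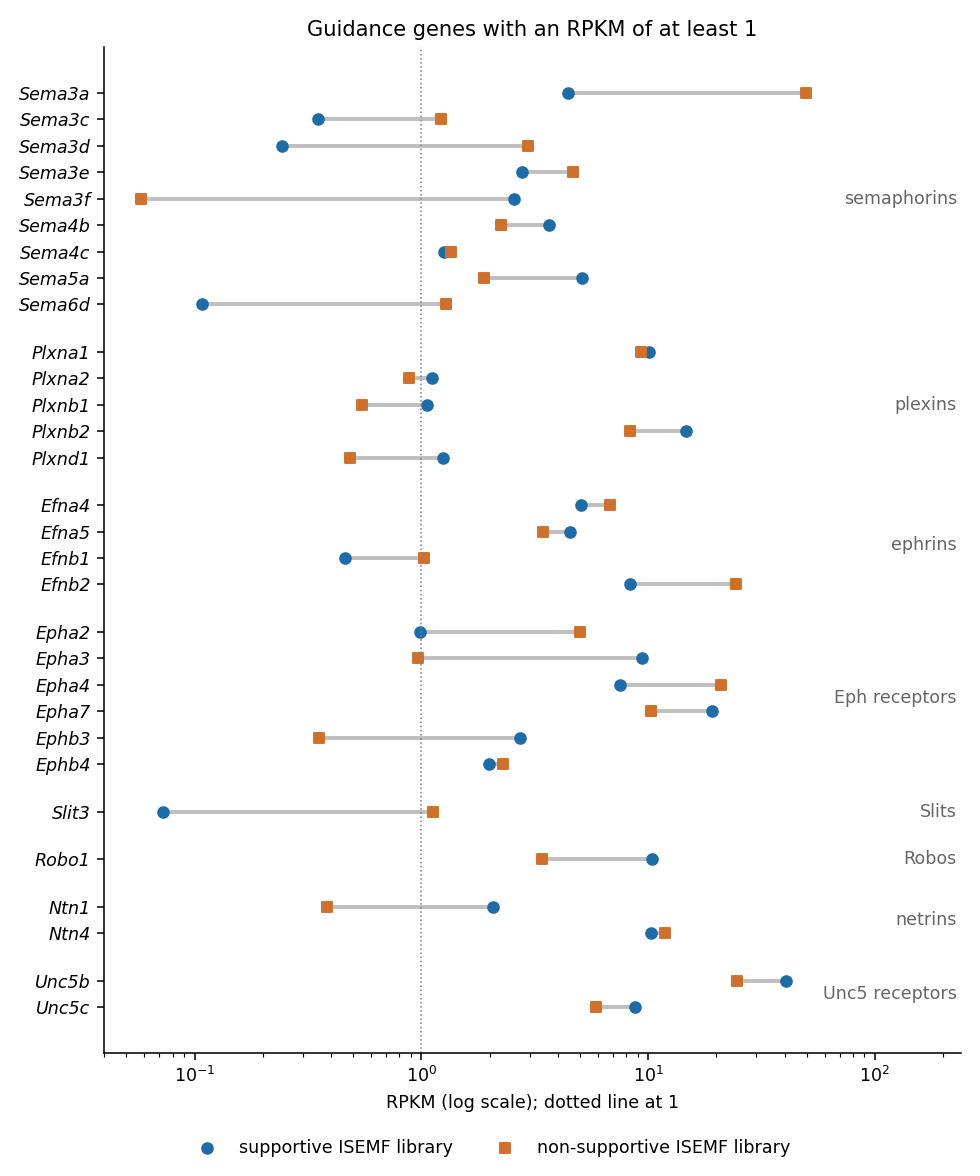
RPKM (log axis) of the 30 guidance genes with an RPKM of at least 1, with the supportive library as circles, the non-supportive library as squares and a line joining them, grouped by family. Sema3a differs most in RPKM, at 4.44 and 49.6, Sema3f has the widest gap on the log axis, at 2.56 and 0.0578, and Plxna1, Sema4c, Ephb4 and Ntn4 lie almost level.

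The class 3 semaphorins are secreted ligands, and their members divided by direction. Sema3a, a repellent that binds neuropilin 1 (chr5:13125593-13602565, plus strand, mm9), had 4179 reads and an RPKM of 4.44 in supportive ISEMFs and 45395 reads and an RPKM of 49.6 in non-supportive ISEMFs. It was 11.2-fold lower in supportive ISEMFs (interval, 10.8 to 11.5), and in the non-supportive library it held rank 425 among all protein-coding genes. Sema3d was at an RPKM of 0.242 and 2.94, or 12.1-fold lower in supportive ISEMFs (interval, 10.1 to 14.8). Sema3c was at 0.350 and 1.23, or 3.50-fold lower (interval, 3.05 to 4.03). Sema3e, which binds plexin D1 without a neuropilin, was at 2.77 and 4.67, 1.69-fold lower (interval, 1.59 to 1.79) and not called.

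The other class 3 genes had more reads in supportive ISEMFs. Sema3f, which binds neuropilin 2 (chr9:107583833-107612806, minus strand), had 637 reads and an RPKM of 2.56 against 14 reads and an RPKM of 0.0578. Its ratio of 44.2 (interval, 26.2 to 81.3) was the largest among the 30 expressed guidance genes, with a log2 ratio of 4.07 at the pseudocount. Sema3b, under the level taken as expressed, had 363 reads against 27, a 13.1-fold higher RPKM (interval, 8.83 to 20.1). Sema3g had 73 reads in supportive ISEMFs and 0 in non-supportive ISEMFs, so that its interval has only a lower bound, a ratio of 18.7. It is named here after its values were seen. The summed RPKM of the 7 class 3 genes was 11.3 in supportive and 58.6 in non-supportive ISEMFs, a 5.20-fold lower sum that Sema3a made up to 84.7% in the non-supportive library.

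The class 3 genes are described by chromosome here because a pattern was noticed after the values were seen. On chromosome 5 of mm9, Sema3d, Sema3a, Sema3e and Sema3c lie within 4.85 Mb, from 12383166 to 17236086, and all had a lower RPKM in supportive ISEMFs, though Sema3e did not pass the call. On chromosome 9, Sema3b and Sema3f lie within 113 kb, from 107500005 to 107612806, and both had a higher RPKM, though Sema3b was under the level taken as expressed and could not be called. The chromosome 5 window holds 17 other protein-coding genes, of which 2 were expressed. Hgf, which encodes hepatocyte growth factor, was called higher there, with an RPKM of 8.39 in supportive and 0.894 in non-supportive ISEMFs. Cacna2d1, a calcium channel subunit, was at 11.6 and 9.70. In the chromosome 9 window Gnai2, a G protein subunit that lies between the semaphorins, was at 59.7 and 56.8. Hgf thus went opposite to the semaphorin genes around it, while Cacna2d1 and Gnai2 had log2 ratios of 0.26 and 0.07.

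**Figure D3:**
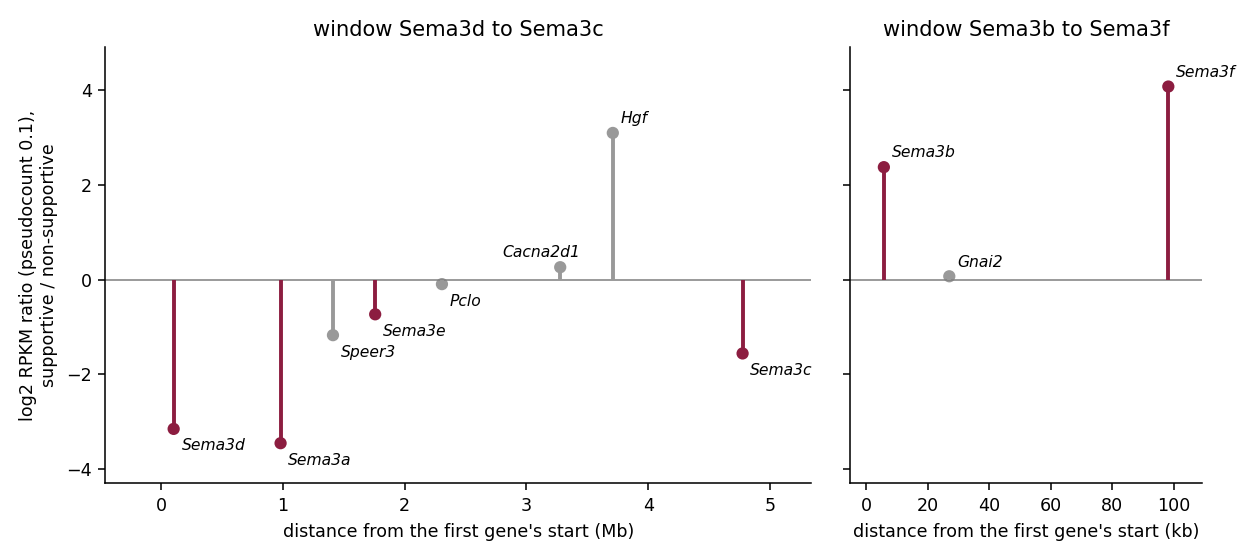
Log2 RPKM ratio (pseudocount 0.1) of the protein-coding genes with at least 10 reads over both libraries in the windows that hold class 3 semaphorins, by distance of each gene's midpoint from the start of the window's first gene, with the semaphorins in dark red and other genes in grey. The 4 semaphorins of the first window lie below 0 and the 2 of the second above it, while Hgf lies at 3.09 and Gnai2 at 0.07.

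The RefSeq promoter table (GRCm38.p6) holds 57 of the 66 symbols. It has no entry for Efnb3, Ntn1, Plxna1, Plxna4, Sema3b, Sema3f, Sema6a, Slit1 and Unc5d. The 250 bases before the start are shown for Sema3d and Sema3a, as the class 3 genes with the largest shift toward non-supportive ISEMFs, with CpG dinucleotides in capitals. Each window matched mm9 at 1 place, on the plus strand at chr5:12382916-12383165 for Sema3d and chr5:13396534-13396783 for Sema3a. The Sema3d start is the first base of the annotated gene, while the Sema3a start lies 271191 bases inside it and its window covers no annotated exon.
Sema3d: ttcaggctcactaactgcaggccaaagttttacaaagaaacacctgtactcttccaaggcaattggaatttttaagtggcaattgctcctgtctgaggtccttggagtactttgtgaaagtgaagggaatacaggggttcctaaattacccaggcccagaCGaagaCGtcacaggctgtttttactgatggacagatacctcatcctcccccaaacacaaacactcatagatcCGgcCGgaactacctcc
Sema3a: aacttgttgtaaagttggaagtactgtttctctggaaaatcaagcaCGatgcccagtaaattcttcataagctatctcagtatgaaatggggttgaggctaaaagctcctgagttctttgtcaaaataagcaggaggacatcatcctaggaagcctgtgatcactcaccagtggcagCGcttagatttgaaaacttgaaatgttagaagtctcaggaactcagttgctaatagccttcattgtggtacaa

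These windows hold 4 and 2 CpG dinucleotides, at a GC content of 46.8% and 40.8%. The median over the 73 promoters of guidance genes was 15 CpG and 64.4% GC, and that over all 32851 promoters in the table was 6 CpG and 52.4% GC. Neither window holds TATAAA, the GC box GGGCGG, the AP-1 site TGACTCA or the TCF core CTTTGAT on either strand, letters that occur in 12.4%, 32.7%, 4.46% and 3.21% of all promoters of that length. Among the promoters of guidance genes, GGGCGG occurs in 69.9% and TATAAA in 2.74%.

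The semaphorins of classes 4 to 7 are anchored to the membrane, and 4 of these 13 genes were expressed. Sema5a was at an RPKM of 5.09 in supportive and 1.89 in non-supportive ISEMFs, 2.69-fold higher (interval, 2.56 to 2.83), and it was the semaphorin with the highest RPKM in the supportive library. Sema6d, a ligand of plexin A1, was at 0.107 and 1.29, or 12.0-fold lower in supportive ISEMFs (interval, 10.1 to 14.2). Sema4b was at 3.67 and 2.25, a ratio of 1.63 (interval, 1.50 to 1.77). Sema4c, a ligand of plexin B2, was at 1.26 and 1.36, and its interval of 0.819 to 1.05 includes 1.

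Among the membrane semaphorins that were not expressed, Sema7a was at an RPKM of 0.115 in supportive and 0.743 in non-supportive ISEMFs, 6.48-fold lower (interval, 4.30 to 10.1). Sema4d, known from lymphocytes and other immune cells, had 47 and 157 reads, 3.44-fold lower (interval, 2.47 to 4.87). Both lay on the same side as the macrophage markers, whose summed RPKM is given above, and the part of macrophage RNA in them was not tested. Sema4g, Sema6c and Sema6a had RPKM values from 0.0423 to 0.189 in both libraries, with ratios of 1.43, 1.24 and 0.987. The interval of Sema4g began at 1.03, and those of Sema6c and Sema6a included 1, so that no difference was detectable at this depth for these 2 genes. Of the membrane semaphorins with fewer reads, named after their values were seen, Sema4f had 11 reads in supportive and 86 in non-supportive ISEMFs, and Sema6b had 45 and 9.

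Of the 9 plexins, the semaphorin receptors, 5 were expressed and 1 of these was called (20%), near the 18.2% of all expressed protein-coding genes. Plxnb2 had the highest RPKM of the family in supportive ISEMFs, at 14.7 against 8.36, a ratio of 1.76 (interval, 1.71 to 1.82). Plxna1, the partner of neuropilins for class 3 semaphorins, was at 10.1 and 9.33, a ratio of 1.08 (interval, 1.04 to 1.11), though 10.7% of its exon bases overlap an antisense gene. Plxna2 was at 1.12 and 0.884, and Plxnb1, a receptor for Sema4d, at 1.06 and 0.545. The only plexin called was Plxnd1, the receptor for Sema3e, at 1.25 and 0.484, a ratio of 2.57 (interval, 2.22 to 2.98).

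The other plexins stayed under an RPKM of 1. Plxna3 was at 0.930 and 0.585, and Plxna4 at 0.168 and 0.286. Plxnc1, the receptor for Sema7a, had 32 and 174 reads, 5.60-fold lower in supportive ISEMFs (interval, 3.82 to 8.43). The macrophage markers share that direction, as does every guidance gene called lower, and the part of macrophage RNA in Plxnc1 was not tested. Plxnb3 had 3 reads in supportive and 0 in non-supportive ISEMFs. The summed RPKM of the 9 plexins was 29.4 in supportive and 20.8 in non-supportive ISEMFs, a ratio of 1.41, and that of the 20 semaphorins was 22.1 and 66.8, or 3.02-fold lower.

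Ephrin genes were led by Efnb2, a transmembrane ligand of EphB4 and EphA4 (chr8:8617434-8661239, minus strand). Efnb2 had 4417 reads and an RPKM of 8.35 in supportive ISEMFs and 12557 reads and an RPKM of 24.4 in non-supportive ISEMFs, 2.93-fold lower (interval, 2.83 to 3.03). Efnb1 was at 0.459 and 1.03, or 2.24-fold lower, with an interval of 1.79 to 2.82 that reaches below 2-fold. The ephrin A genes, whose products are anchored by a lipid tail, included none that was called. Efna4 was at 5.05 and 6.77, 1.34-fold lower (interval, 1.20 to 1.50) with 10.5% of its exon bases under an antisense gene, and Efna5 at 4.54 and 3.43, a ratio of 1.32 (interval, 1.22 to 1.44). The Efna5 level is understated in both libraries, since 2416 of its 4032 exon bases in the annotation also belong to the other Efna5 identifier, which had 0 reads, and reads that could belong to more than a single gene were left out by the authors.

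Efna1, Efna2 and Efna3 stayed under the level taken as expressed and were therefore not called, and each had more reads in supportive ISEMFs. Efna3 was at an RPKM of 0.853 and 0.339, a ratio of 2.51 (interval, 1.84 to 3.46), and Efna2 at 0.558 and 0.162, a ratio of 3.44 (interval, 2.17 to 5.66). Efna1, named after its values were seen, had 84 reads in supportive and 2 in non-supportive ISEMFs, a ratio of 40.8 with a wide interval of 11.0 to 343. The summed RPKM was 11.3 and 10.7 for the ephrin A genes and 8.84 and 25.5 for the ephrin B genes.

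Eph receptors reached nearly the same summed RPKM in both libraries, 43.2 in supportive and 41.0 in non-supportive ISEMFs, from different members. Epha7 led in supportive ISEMFs with 44.5% of that sum and Epha4 in non-supportive ISEMFs with 51.2%. Epha7 was at an RPKM of 19.2 and 10.3, a ratio of 1.86 (interval, 1.81 to 1.91). Epha4, which binds ephrins of both classes (chr1:77363760-77511663, minus strand), was at 7.54 and 21.0, or 2.78-fold lower in supportive ISEMFs (interval, 2.68 to 2.90). Epha3 (chr16:63543364-63863984, minus strand) was at 9.41 and 0.969, a 9.71-fold higher RPKM (interval, 8.73 to 10.8), and its share of the family sum was 21.8% in supportive and 2.36% in non-supportive ISEMFs. Epha2 went the other way, at 0.988 and 5.02, or 5.08-fold lower (interval, 4.56 to 5.68). Of the 14 Eph receptors 6 were expressed, and of these 2 were called higher and 2 lower. That is 66.7% of the expressed Eph receptors, against 18.2% of all expressed protein-coding genes. Epha2, Epha3 and Ephb3 reached an RPKM of 1 only in the library where they were higher, which favors a call. Of the Eph receptors that reached it in both libraries, Epha4 was called and Epha7 and Ephb4 were not.

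EphB receptors are the partners of ephrin B ligands. Ephb3 was at an RPKM of 2.73 in supportive and 0.353 in non-supportive ISEMFs, a ratio of 7.73 (interval, 6.79 to 8.84). Ephb2, just under the level taken as expressed, was at 0.951 and 0.199, a ratio of 4.77 (interval, 4.14 to 5.51). Ephb4 was nearly level at 1.98 and 2.28, 1.15-fold lower (interval, 1.07 to 1.25), and Ephb1 had 0 reads in both libraries. Summed over the 5 EphB genes, RPKM was 5.69 and 2.98, a ratio of 1.91, while that of their ephrin B ligands was 2.89-fold lower in supportive ISEMFs. Epha1 was at 0.363 and 0.686, 1.89-fold lower (interval, 1.44 to 2.49).

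The Epha3 promoter is shown because Epha3 had the largest ratio in favor of supportive ISEMFs among expressed genes with a promoter entry. The 250 bases before its RefSeq start matched mm9 at 1 place, on the minus strand at chr16:63864002-63864251. They cover no annotated exon and hold 16 CpG dinucleotides, in capitals, at a GC content of 62.8%. None of the motifs named above occurs in the window. The window of Slit3, the expressed gene with the largest fold lower in supportive ISEMFs, holds 35 CpG at a GC content of 78.8%. Annotated exons cover 232 of its 250 bases, so it is mostly transcribed sequence in that annotation, and it holds GGGCGG on the minus strand. The median was 16 CpG and 64.8% GC over the 5 promoters of genes called higher, and 11 CpG and 57.8% GC over the 10 promoters of genes called lower.
Epha3: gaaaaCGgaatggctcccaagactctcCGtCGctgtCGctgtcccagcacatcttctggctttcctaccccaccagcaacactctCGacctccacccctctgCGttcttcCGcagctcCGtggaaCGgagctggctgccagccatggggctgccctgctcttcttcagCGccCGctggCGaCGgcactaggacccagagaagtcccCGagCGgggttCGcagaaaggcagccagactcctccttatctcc

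Slits are large secreted ligands, and both Slit genes with more than a few reads were lower in supportive ISEMFs. Slit3 had 33 reads and an RPKM of 0.0723 against 500 reads and an RPKM of 1.13, 15.6-fold lower (interval, 11.0 to 22.9). Slit2, under the level taken as expressed, was at 0.223 and 0.555, 2.49-fold lower (interval, 2.20 to 2.83). Slit1 had 2 and 4 reads. Their receptor Robo1 (chr16:72663394-73046340, plus strand) lay on the other side, at 10.4 and 3.41, a ratio of 3.06 (interval, 2.92 to 3.21), and made 99.9% of the Robo sum in supportive and 96.8% in non-supportive ISEMFs. Robo2 had 3 reads in supportive and 160 in non-supportive ISEMFs, 54.9-fold lower with an interval of 18.4 to 269. Robo4, which is known from endothelium, had 2 and 0 reads. The summed RPKM of the 3 Slits was 5.66-fold lower and that of the 4 Robos 2.96-fold higher in supportive ISEMFs.

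**Figure D4:**
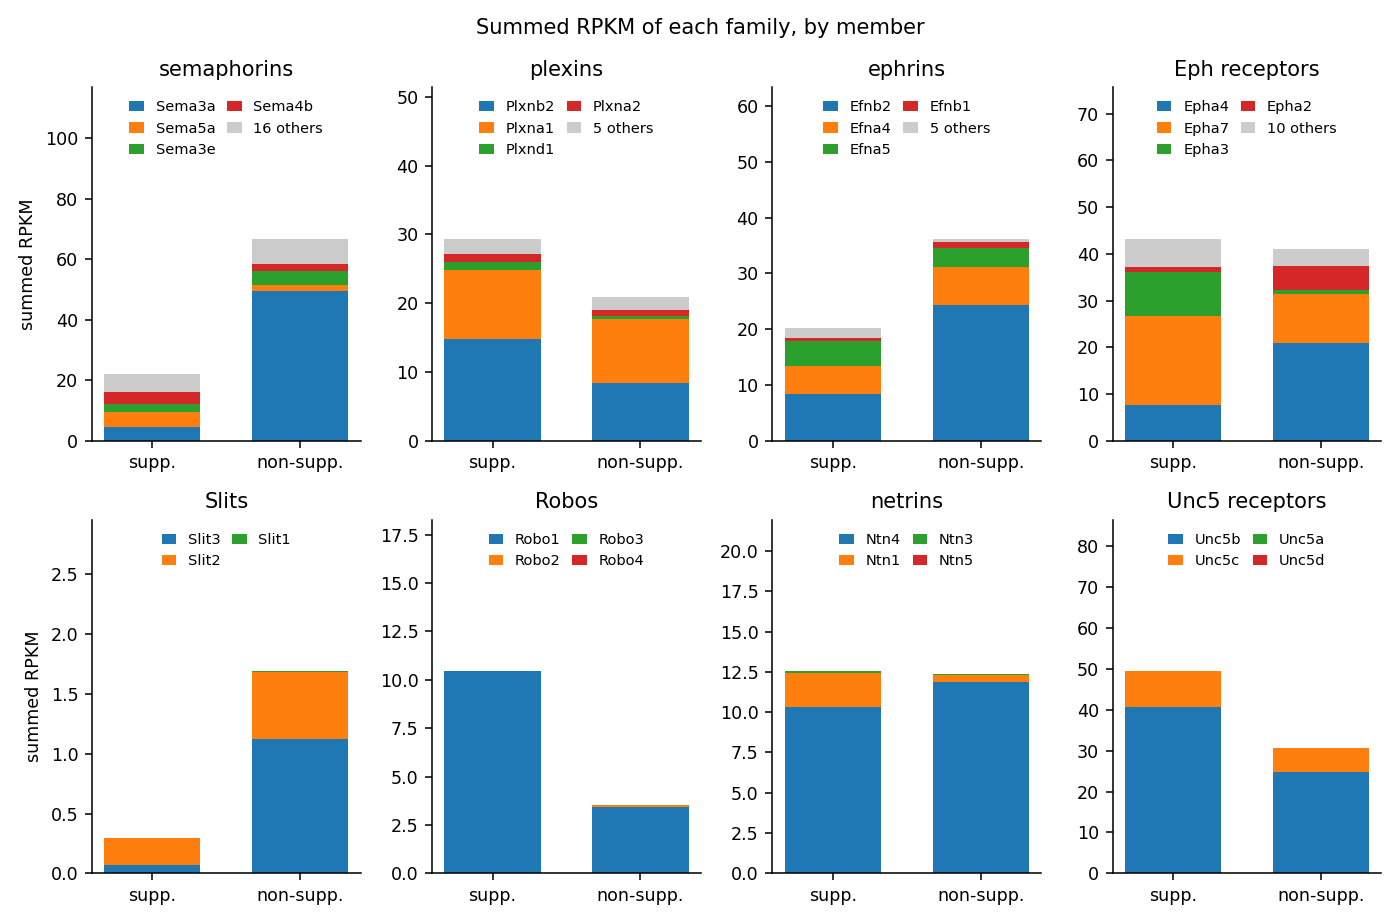
Summed RPKM of each of the 8 families in the supportive (supp.) and non-supportive (non-supp.) library, stacked by the 4 members with the highest RPKM and the rest, each panel with its own axis from 0. Sema3a fills 74.3% of the semaphorin bar of the non-supportive library and 20.1% of that of the supportive library, and Epha4 makes 51.2% of the Eph receptor bar of the non-supportive library against 17.5% of the other.

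Netrins and their Unc5 receptors were expressed in both libraries. Ntn4, a netrin of basement membranes, was at an RPKM of 10.3 in supportive and 11.9 in non-supportive ISEMFs, 1.15-fold lower (interval, 1.10 to 1.21). Ntn1, the founding guidance netrin, was at 2.08 and 0.383, a ratio of 5.43 (interval, 4.64 to 6.38). Ntn3 had 43 and 37 reads, with an interval of 0.711 to 1.80 that includes 1, and Ntn5 had 0 reads in both libraries. Because Ntn4 made most of the family, the netrin sum was 12.5 and 12.4.

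Unc5b, a netrin receptor (chr10:60225358-60294329, minus strand), had the highest RPKM of all guidance genes in supportive ISEMFs, at 40.6 against 24.8, where it held rank 475 and rank 1015 among protein-coding genes. Its ratio was 1.64 (interval, 1.60 to 1.68). Unc5c was at 8.77 and 5.87, a ratio of 1.49 (interval, 1.45 to 1.54). Unc5a and Unc5d had 7 reads each in supportive ISEMFs and 9 and 12 in non-supportive ISEMFs. No Unc5 receptor was called, and the summed RPKM of the family was 49.4 and 30.7.

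**Figure D5:**
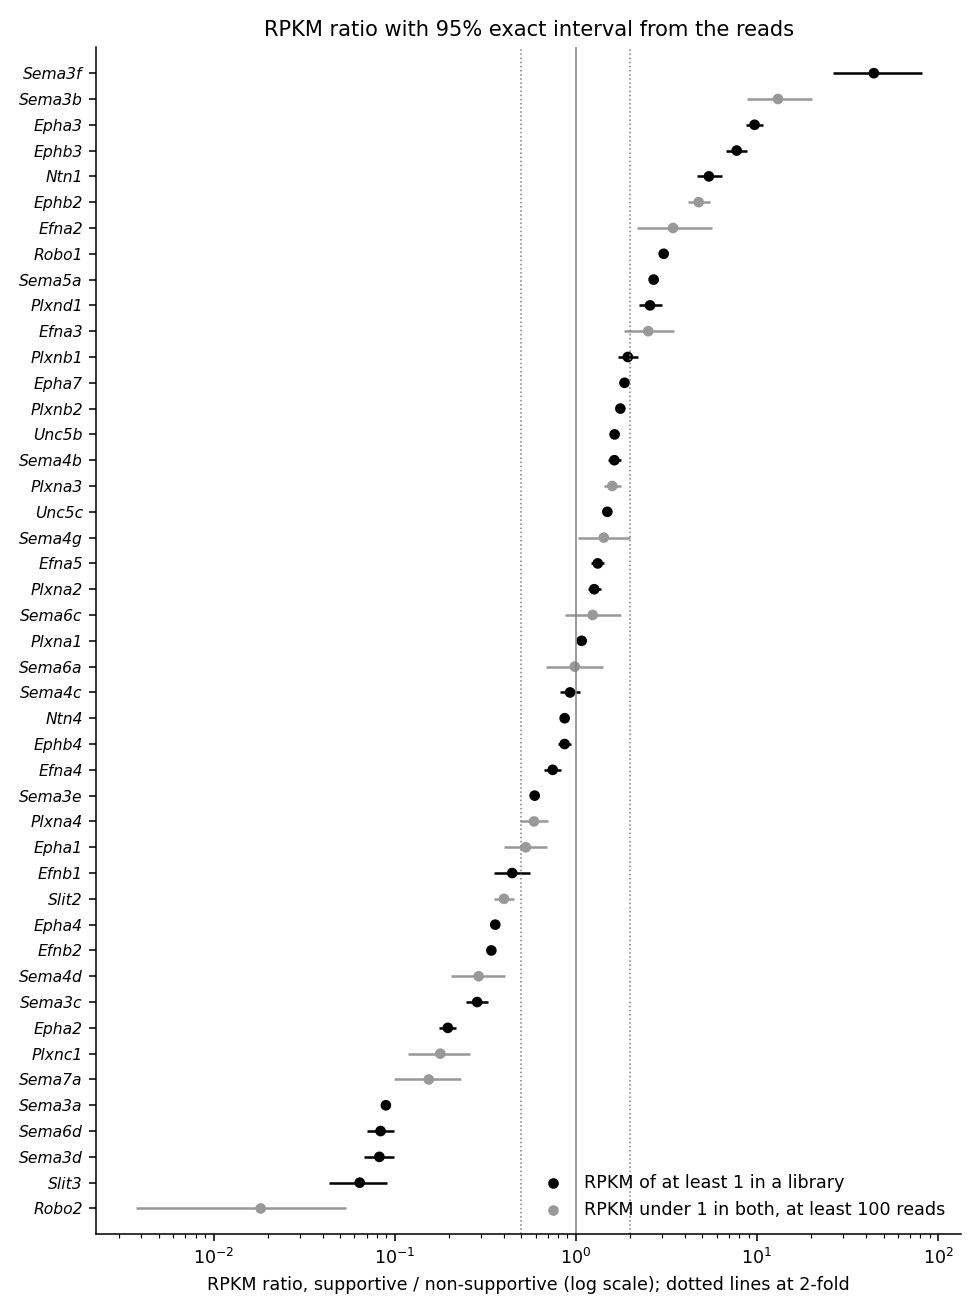
RPKM ratio (supportive over non-supportive, log axis) of the 45 guidance genes that were expressed (black) or had at least 100 reads over both libraries (grey), with 95% exact intervals from the reads and dotted lines at 2-fold. The points run from Robo2, with 3 reads in supportive ISEMFs, to Sema3f at 44.2, and the intervals of low genes are the widest.

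Genes that work with these ligands and receptors were examined from a list of 40 symbols. No protein-coding gene was listed for Draxin, and Flrt3, Ntng1 and Mical3 had more than 1 identifier each, which gave 42 genes. Of the 26 expressed genes, 4 were called higher and 6 lower in supportive ISEMFs (38.5%), against 18.2% of all expressed protein-coding genes (9.25% higher, 8.98% lower), with a median log2 ratio of -0.14. With a pseudocount of 1 in place of 0.1, 4 of the 26 were called, while the share over all expressed protein-coding genes fell to 12.25%. The neuropilins differed from each other. Nrp2 was at an RPKM of 21.9 in supportive and 69.3 in non-supportive ISEMFs, 3.17-fold lower (interval, 3.11 to 3.22), and Nrp1 at 49.95 and 33.0, a ratio of 1.51 (interval, 1.48 to 1.55). Neogenin, encoded by Neo1, was at 73.3 and 37.8, a ratio of 1.94 (interval, 1.91 to 1.97), while Dcc had 0 reads in both libraries. Among the neogenin ligands, Rgma was 4.08-fold higher (1.41 against 0.346) and Rgmb 2.72-fold lower (7.40 against 20.1).

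The other pathway genes called higher were Itga1, an integrin subunit, at an RPKM of 11.9 against 2.77, and Mical1, an oxidase downstream of plexins, at 2.10 against 0.590. Of the 2 identifiers listed for Mical3, 1 was also called higher, at 3.65 against 1.37. The other went the same way, at 1.77 against 0.860, a ratio of 2.06 (interval, 1.89 to 2.25). It missed the call only on the scale with the pseudocount, at a log2 ratio of 0.96. Called lower were Itgb1, the integrin β1 subunit to which Sema7a also binds, at 272 against 658, and the adaptor Nck2, at 0.407 against 1.29. Srgap3, an effector of Robo receptors, was at 5.16 against 10.8, and the kinase Fyn at 5.43 against 11.2, 2.09-fold and 2.06-fold lower.

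Of the 67 guidance genes, 37 did not reach an RPKM of 1 in either library, and 4 had no read: Epha8, Ephb1, Ntn5 and the other Efna5 identifier. A count of 0 allows a share of up to 5.92e-06% of assigned reads in supportive ISEMFs and 6.05e-06% in non-supportive ISEMFs, which is that of 3 reads. The 22 genes with fewer than 100 reads over both libraries had at most 97, and besides those already named they were Epha5, Epha6, Epha10, Ephb6, Efnb3, Robo3, Sema4a and Sema5b. Of these, Ephb6 had 9 reads in supportive and 55 in non-supportive ISEMFs, and each of the others had at most 14 in either library.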

How the data were processed

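RNA-seq libraries of supportive and non-supportive ISEMFs, 1 each, were compared. The authors prepared TruSeq libraries, aligned single-end reads of 50 bases to mm9 with TopHat2 2.0.4 and Ensembl genes, allowing 2 mismatches and unique hits only, and counted reads with HTSeq 0.5.4p3, per the methods and the submitters' processing notes. The Ensembl release is not given in the sources used here, nor is the use of strand in counting. The deposited counts are raw numbers of reads per gene, and reads that did not fall on a single gene were excluded. The deposited RPKM values are those counts scaled by the authors to exon length and library size. The authors' log2 ratios and DESeq p-values were not used, nor was a shorter table of Wnt pathway genes.

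All 67 gene identifiers are in GENCODE vM1 (NCBIM37, the same assembly as mm9), from which coordinates were taken. The deposited exon length, described as a union of exons, equals the union in that annotation for 17 of the 67 genes and the summed length of distinct exons, with overlaps counted again, for 36. It was never shorter than the union and up to 2.46 times as long, so levels compared between genes may be understated for genes with many isoforms, while ratios between libraries are not affected. Exons of 16 guidance genes overlap those of another listed gene.

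With 1 library per population, no test was possible and no p-value is given. A pseudocount of 0.1, a minimum RPKM of 1 and a 2-fold threshold were used. Genes were named when expressed or when they had at least 100 reads over both libraries, and other pathway genes when called, with Nrp1, Nrp2, Neo1 and Dcc named in any case. The remaining guidance genes are given by their reads so that each is accounted for, and any ratio or values given for 1 of them was chosen after seeing it. The gene list, the pathway and marker lists and most alternative settings were chosen with earlier results of these data known, and the promoter windows and motifs after the values were seen. The interval step was tested on simulated data. Normalization factors came from edgeR 4.0.16 (TMM) and DESeq2 1.42.0 (size factors) in R 4.3.3, intervals from scipy 1.17.1, tables from pandas 2.3.3 with numpy 2.4.6, and plots from matplotlib 3.10.9, under Python 3.11.15.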

Additional observations from a re-analysis of the deposited data

How the results depend on the processing

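The count of 16 called guidance genes (7 higher, 9 lower) fell to 7 of 14 (3 higher, 4 lower) with a minimum RPKM of 5, where the median log2 ratio was 0.34. Without a minimum, 26 of 67 were called (13 higher), with a median of 0.00. A 4-fold threshold left 9 of 30 (4 higher, 5 lower). The share called over all expressed protein-coding genes moved as well, to 17.7% with a minimum of 5 and 6.62% at 4-fold. Without a minimum it was 11.8% of all protein-coding genes. Scaling to reads on genes that are not mitochondrially encoded gave 20 calls (11 higher) among 36 expressed and a median of 0.47. It called 19.7% of all expressed protein-coding genes. Pseudocounts of 1 and 0.001, TMM factors, size factors, centring, and requiring the whole interval past 2-fold gave 12 to 16 calls. The share over all expressed protein-coding genes was 12.25% with a pseudocount of 1 and 15.9% to 19.2% in the others. After the data were seen, further alternatives were added. With the exon union of GENCODE vM1 as length, 33 genes were expressed and 18 called, with a median of 0.39. With the balance of reads that are not mitochondrially encoded but the mean RPKM level kept, 16 of 29 were called (8 higher), with a median of 0.42. Over all expressed protein-coding genes, 18.4% were called under either of these settings. The median was 0.10 without genes with exon overlap and 0.39 without class 3 semaphorins. Of the other pathway genes, 4 were called with a pseudocount of 1 (1 higher, 3 lower), and TMM factors gave 5 higher and 5 lower. None of the 16 called guidance genes changed direction under the 2 pseudocounts and the scalings tried, size factors included, nor did the summed RPKM ratio of the 8 families under those scalings. Called pathway genes were followed by their counts only. Among the 45 guidance genes named by rule, 2 that were not called changed sign. Sema4c went from -0.10 to 0.01 with mitochondrially encoded genes left out, and Sema6a, at -0.0056, became positive under every scaling, at most 0.06. No paired analysis was possible because each population has 1 library.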
